A study of Mus musculus with 8 samples.

Results

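The 9 genes described here, Sis, Lct, Treh, Anpep, Dpp4, Mme, Alpi, Ggt1 and Xdh, form a set named for the digestive enzymes of the small intestinal brush border. Xdh differs in that its enzyme works inside the cell. The 9 genes were chosen by symbol from the 27998 genes of the deposited count matrices. Their transcripts were followed in single EpCAM-positive cells sorted from small intestinal crypts, EpCAM being a surface protein of epithelial cells. The crypts came from adult mice labelled WT and from KO mice lacking ieCtnnb1, an intestinal enhancer of Ctnnb1 (the gene for β-catenin). The animals were 10-week-old females. According to the study's methods, the controls labelled WT carried at the H11 site a transgenic reporter driven by the same enhancer, whereas the KO mice were homozygous for its removal at Ctnnb1 by CRISPR/Cas9 editing. Cells of 2 animals per genotype were pooled. The labels list 4 samples in each group, but the values came as 1 matrix per group whose barcodes name no sample. Each group was therefore 1 sample. No test between groups was possible, and every interval below covers counting error only at 95%.

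Digestion ends at the brush border, the carpet of microvilli on the enterocyte, where membrane-bound enzymes cut short sugars and peptides into forms that transporters accept. Enterocytes are born from stem cells at the crypt base, divide as transit-amplifying cells, and gain these enzymes as they leave the crypt and climb the villus. The set differs along the gut: lactase and sucrase-isomaltase are known as enzymes of the upper and middle small intestine, and the distal intestine is known for bile acid uptake. Sis (sucrase-isomaltase), Lct (lactase) and Treh (trehalase) split disaccharides. Anpep (aminopeptidase N), Dpp4 (dipeptidyl peptidase 4) and Mme (neprilysin) cut peptides. Alpi (intestinal alkaline phosphatase) removes phosphate groups, Ggt1 (gamma-glutamyltransferase 1) begins the breakdown of extracellular glutathione, and Xdh (xanthine dehydrogenase) oxidises purines inside the cell.

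All 9 genes were found in both matrices and in the GENCODE M21 annotation of mouse build GRCm38. Sis lies on chromosome 3 (72888557 to 72967863, minus strand), Mme on chromosome 3 (63241537 to 63386030, plus strand), Lct on chromosome 1 (128284756 to 128328318, minus strand) and Alpi on chromosome 1 (87098002 to 87101606, minus strand). Anpep lies on chromosome 7 (79821803 to 79861059, minus strand), Dpp4 on chromosome 2 (62330073 to 62412231, minus strand) and Treh on chromosome 9 (44673233 to 44686305, plus strand). Ggt1 lies on chromosome 10 (75561604 to 75586200, plus strand) and Xdh on chromosome 17 (73883895 to 73950196, minus strand). Treh overlaps Phldb1 on the other strand and Dpp4 overlaps Gm13561 on the other strand, while Anpep and Xdh overlap a gene model on their own strand (Gm44974 and CT025731.2). The study's methods name Cell Ranger with default parameters but do not say how strand was handled. What these overlaps added to or took from the counts of Treh, Dpp4, Anpep and Xdh was not tested. Alpi has a close paralog, Akp3, and reads common to both could have been lost or split.

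The sequence before the start of transcription was taken from RefSeq (build GRCm38.p6), which held 13 start sites of 8 of the 9 genes, all but Xdh. The 250 bases before each start were searched on both strands for short motifs bound by regulators of enterocyte genes: TTTATG for CDX, AGATAA for GATA and CAAAGT for HNF4. Sis held the CDX motif, with its first base 43 bases before the start. Lct held the CDX motif 31 bases and the GATA motif 101 and 90 bases before its start. The GATA motif also stood 32 bases before the start of Dpp4 and before 1 start site of Ggt1, and the HNF4 motif before Alpi, Treh, 1 start site of Mme and 1 of Ggt1. None was found before Anpep. Of 32851 mouse promoters of the same length, 10.8% held the CDX motif, 9.99% the GATA motif and 12.6% the HNF4 motif. No site before the 9 genes overlapped another. A match of 6 letters is a description of the sequence, not evidence of binding. The promoters of Sis, Lct and Alpi are shown because Sis and Alpi were among the members seen earliest along the enterocyte lineage and Lct was the one seen latest. They run 5′ to 3′ on the strand of the gene and end at the base before the start, with motif matches in capitals.
Sis (chr3:72967864-72968013, minus strand): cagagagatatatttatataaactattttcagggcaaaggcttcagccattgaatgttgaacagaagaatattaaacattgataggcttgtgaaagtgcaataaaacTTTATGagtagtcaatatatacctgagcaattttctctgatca
Lct (chr1:128328319-128328468, minus strand): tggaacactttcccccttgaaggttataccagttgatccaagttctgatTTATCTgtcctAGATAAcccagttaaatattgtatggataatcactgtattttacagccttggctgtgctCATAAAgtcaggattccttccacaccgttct
Alpi (chr1:87101607-87101756, minus strand): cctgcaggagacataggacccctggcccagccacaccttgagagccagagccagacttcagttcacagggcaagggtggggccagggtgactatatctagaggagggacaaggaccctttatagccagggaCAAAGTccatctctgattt

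The WT matrix held 134876816 UMIs (unique molecular identifiers, each standing for 1 captured transcript) in 15987 barcodes and the KO matrix 123794575 UMIs in 12763 barcodes. After a limit of 30% mitochondrial UMIs, which removed 12.7% of WT and 32.1% of KO barcodes with at least 200 genes, 13095 WT and 8658 KO cells remained, and 29 of the kept barcodes occurred in both matrices. The cells were sorted by their transcripts into 23 clusters, from which the 9 enzymes were held out, and the clusters were named from fixed marker genes. The enterocyte lineage ran from CBC-like cells (crypt base columnar stem cells) through TAC-like cells (transit-amplifying) to imEC-like cells (enterocytes still immature) and mEC-like cells (enterocytes that had matured). The CBC-like class was 1 cluster led by DNA replication genes such as Mcm6 and Mcm3, with Clca3b the 1 stem cell marker among its 10 leading genes, and its name rests on 4 markers among 50. The other classes were GC-like (goblet), PC-like (Paneth), EEC-like (enteroendocrine) and TC-like (tuft) cells, and 1942 WT and 1743 KO cells stayed unnamed. Every detected marker of a class was higher in that class than in the other cells of both matrices, 16 of 16 for mEC-like and 9 of 9 for imEC-like cells. The same markers had given the names, so this is a description and no test of them. The imEC markers Reg3b and Reg3g were higher still in mEC-like cells. Reg3b was at 6354 CPM in imEC-like and 9637 in mEC-like cells of WT, and at 22867 and 35822 CPM in KO. There were 1800 WT and 2269 KO mEC-like cells and 474 WT and 459 KO imEC-like cells. Ctnnb1, the target of the deleted enhancer, was lower in KO: mEC-like cells held 225 CPM in WT and 126 CPM in KO (log2 ratio −0.84, interval −0.94 to −0.73). The median ratio of all genes with at least 50 UMIs in that class was itself −0.38. Over all kept cells Ctnnb1 was at −0.37 (−0.41 to −0.34), beside a median of −0.05. CPM stands for the UMIs of a gene per 1000000 UMIs of the class. The deletion leaves the gene itself in place, so this checks the labels only in part.

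All 9 enzymes were highest in mEC-like cells in both matrices. That class held 5.89% of all UMIs in WT and 9.26% in KO, but between 40.3% (Dpp4) and 71.2% (Lct) of the UMIs of each enzyme in WT, and between 52.0% (Dpp4) and 75.8% (Lct) in KO. Tuft cells, which are not digestive cells, served as the class to compare with for free RNA. They are no common floor, because some enzymes were lower still in PC-like cells of WT. The log2 ratio of PC-like to tuft cells was −2.08 (−2.54 to −1.58) for Dpp4, −1.40 (−1.99 to −0.75) for Xdh and −1.09 (−1.88 to −0.17) for Mme. For Sis it was −0.32 (−0.77 to 0.17), within counting error. The part of free RNA in these levels was not tested. Differences were counted where they passed 2-fold, among genes with at least 50 UMIs over the cells compared, and the share of all such genes past 2-fold is given beside each count. All 9 enzymes were past 2-fold higher in mEC-like than in TC-like cells, beside 18.9% of genes in WT and 17.1% in KO. The WT gap was smallest for Dpp4 (7.05-fold, a log2 ratio of 2.82 with an interval of 2.36 to 3.31), while that of Lct rests on 3 UMIs in tuft cells (6.31, 4.76 to 8.59). The plot of CPM by class shows the 9 genes in all 8 classes.

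**Figure D1:**
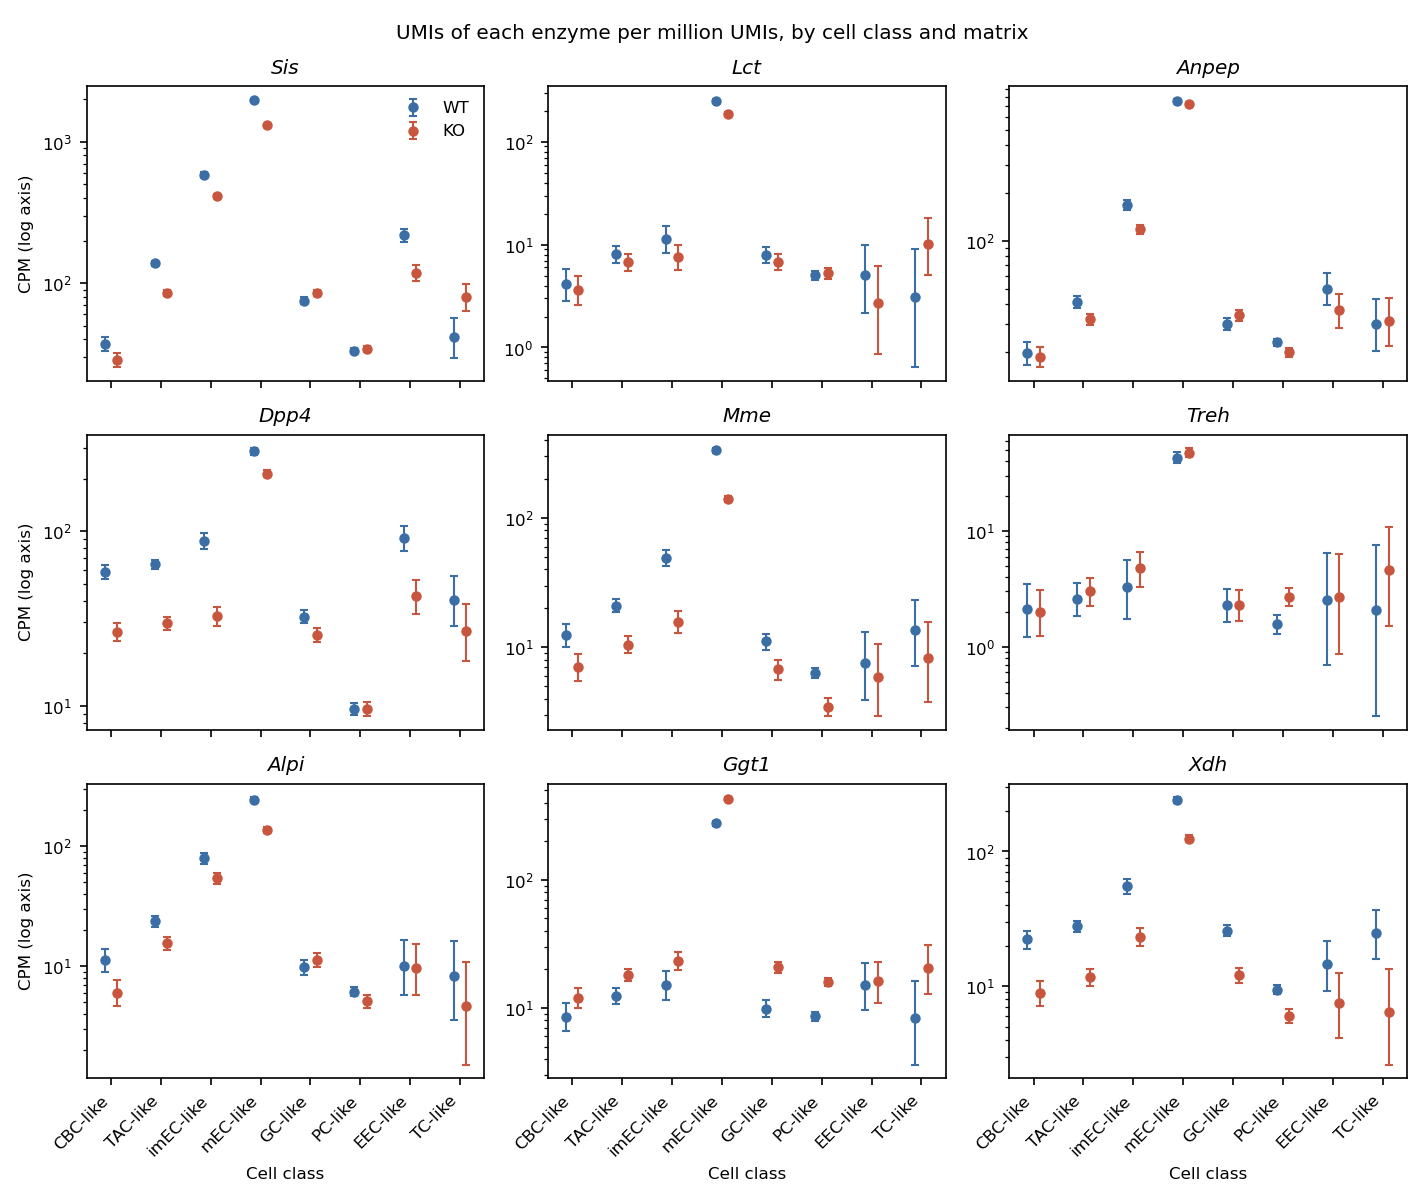
CPM of each enzyme (UMIs per 1000000 UMIs of the class, log axis) in 8 cell classes of the WT matrix (blue) and the KO matrix (red), with exact Poisson 95% intervals. Each gene is highest in mEC-like cells, Sis at 1961 CPM in WT and 1321 in KO, and Lct, Treh and Ggt1 are at 11.3, 3.27 and 15.1 CPM in WT imEC-like cells, just before it.

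The enzymes differed in how much of the mEC-like level was already present in imEC-like cells. Sis, Dpp4 and Alpi stood in WT imEC-like cells at 29.7%, 30.8% and 32.4% of their mEC-like level, and Xdh and Anpep at 22.8% and 22.2%. Mme stood at 14.8%. The late ones were Treh, Ggt1 and Lct, at 7.61%, 5.47% and 4.59%. In KO the same 3 genes were again the lowest, at 10.0%, 5.45% and 4.06%, and Alpi was again the highest, at 39.5%. Dpp4 stood lower in that order in KO, at 15.2%, below Xdh (18.7%) and Anpep (16.2%). All 9 enzymes were past 2-fold higher in mEC-like than in imEC-like cells, where 6.29% of 8726 genes were past 2-fold higher in WT and 9.49% of 8918 genes in KO. Because the classes were built from the same cells, these differences between classes are a description with no test.

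Summed by class, Sis climbed at every step of the lineage. In WT it stood at 37.1 CPM in CBC-like cells, within counting error of the 41.5 CPM of tuft cells (log2 ratio −0.16, −0.64 to 0.35), at 138 in TAC-like, 582 in imEC-like and 1961 in mEC-like cells. The TAC-like level came mainly from 1 cluster. In cluster 9 (leading genes Ube2c and Rbp7) Sis was at 271 CPM in WT, and in cluster 8 (Cenpf and Sox4), the other deep TAC-like cluster, at 22.0 CPM. In KO the series was 28.5, 85.5, 415 and 1321 CPM, and there the TAC-like level was within counting error of the 79.5 CPM of tuft cells (0.11, −0.21 to 0.44). Cluster 9 stood above them in KO too, at 151 CPM (0.93, 0.61 to 1.26). Sis was also found in EEC-like cells, at 218 CPM in WT and 119 in KO, which in WT was 5.24-fold the level in tuft cells (log2 ratio 2.39, interval 1.91 to 2.90) and in KO 1.49-fold (0.58, 0.21 to 0.95). GC-like and PC-like cells had 75.1 and 33.2 CPM in WT and 85.6 and 34.2 CPM in KO.

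Lct, the other large disaccharidase, stayed low until the last step. It was at 4.13, 8.02 and 11.3 CPM in CBC-like, TAC-like and imEC-like cells of WT and at 247 CPM in mEC-like cells, a 21.8-fold step (log2 ratio 4.45, 4.02 to 4.91). In KO it was at 3.63, 6.73 and 7.54 CPM before a 24.6-fold step to 186 CPM (4.62, 4.23 to 5.04). The imEC-like level was not above the TAC-like level beyond counting error in either matrix (the log2 ratio was 0.50 with an interval that reached down to −0.03 in WT, and 0.16, −0.33 to 0.64, in KO). Treh was the least abundant member by UMIs and had the same shape, with 2.13, 2.61, 3.27 and 43.0 CPM along the lineage in WT and 2.004, 3.01, 4.75 and 47.3 CPM in KO. The 3 levels before the last step were within counting error of the 2.08 CPM of tuft cells in WT and of their 4.62 CPM in KO, which rest on 2 and 5 UMIs.

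Of the peptidases, Anpep resembled Sis, at 19.6, 41.2, 168 and 756 CPM from CBC-like to mEC-like cells in WT and at 18.5, 32.0, 118 and 730 CPM in KO. Mme stood at 12.4, 21.0, 48.8 and 331 CPM through the same classes of WT and at 7.06, 10.5, 15.8 and 139 CPM in KO. Its step from TAC-like to imEC-like cells was smaller in KO (log2 ratio 0.59, 0.23 to 0.94) than in WT (1.22, 0.95 to 1.48). Dpp4 had the flattest course. It was already at 58.6 CPM in CBC-like and 64.5 CPM in TAC-like cells of WT, against 9.59 CPM in PC-like cells, and then at 88.1 and 286 CPM in the enterocyte classes. EEC-like cells also carried Dpp4, at 91.1 CPM in WT, 2.25-fold the tuft level (log2 ratio 1.17, 0.65 to 1.72). In KO the CBC-like, TAC-like, imEC-like and EEC-like levels of Dpp4 were lower, at 26.5, 29.7, 32.5 and 42.4 CPM, and the first 3 were within counting error of the 26.8 CPM of tuft cells but above the 9.58 CPM of PC-like cells.

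The remaining enzymes split between early and late. Alpi was at 11.2, 23.6, 79.3 and 245 CPM along the lineage in WT and at 6.01, 15.6, 53.9 and 137 CPM in KO, and it stayed between 6.14 and 10.1 CPM in the EEC-like, GC-like, PC-like and TC-like classes of WT. Xdh was at 22.2, 27.8, 55.1 and 241 CPM in WT and at 8.88, 11.6, 23.3 and 125 CPM in KO. At each of the 4 steps Xdh was lower in KO, but its CBC-like and TAC-like levels were within counting error of tuft cells in both matrices. Ggt1 was low in CBC-like, TAC-like and imEC-like cells (8.52, 12.4 and 15.1 CPM in WT, 11.9, 18.1 and 23.3 in KO) and then stood 18.3-fold higher in mEC-like cells of both matrices, at 276 and 428 CPM.

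The mEC-like class itself was made of 5 clusters, and the enzymes did not share 1 pattern among them. Cluster 0 (leading genes Fabp1 and Rbp2) held 1061 WT and 729 KO cells and cluster 17 (Apoa4 and Gda) 357 and 123. Cluster 18 (Tmigd1 and Fabp6, a bile acid carrier of the distal intestine) held 73 and 214, cluster 10 (Myo15b and Slc34a2) 277 and 755, and cluster 16 (2010109I03Rik and Clca4a) 32 and 448 cells. Clusters 10 and 16 were shallow, with medians between 810 and 899 UMIs per cell, against 5691 in WT and 9841 in KO for cluster 0. Most WT cells of the class were in cluster 0, whereas cluster 10 was the largest in KO. The plot by mEC-like cluster gives all 9 enzymes.

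**Figure D2:**
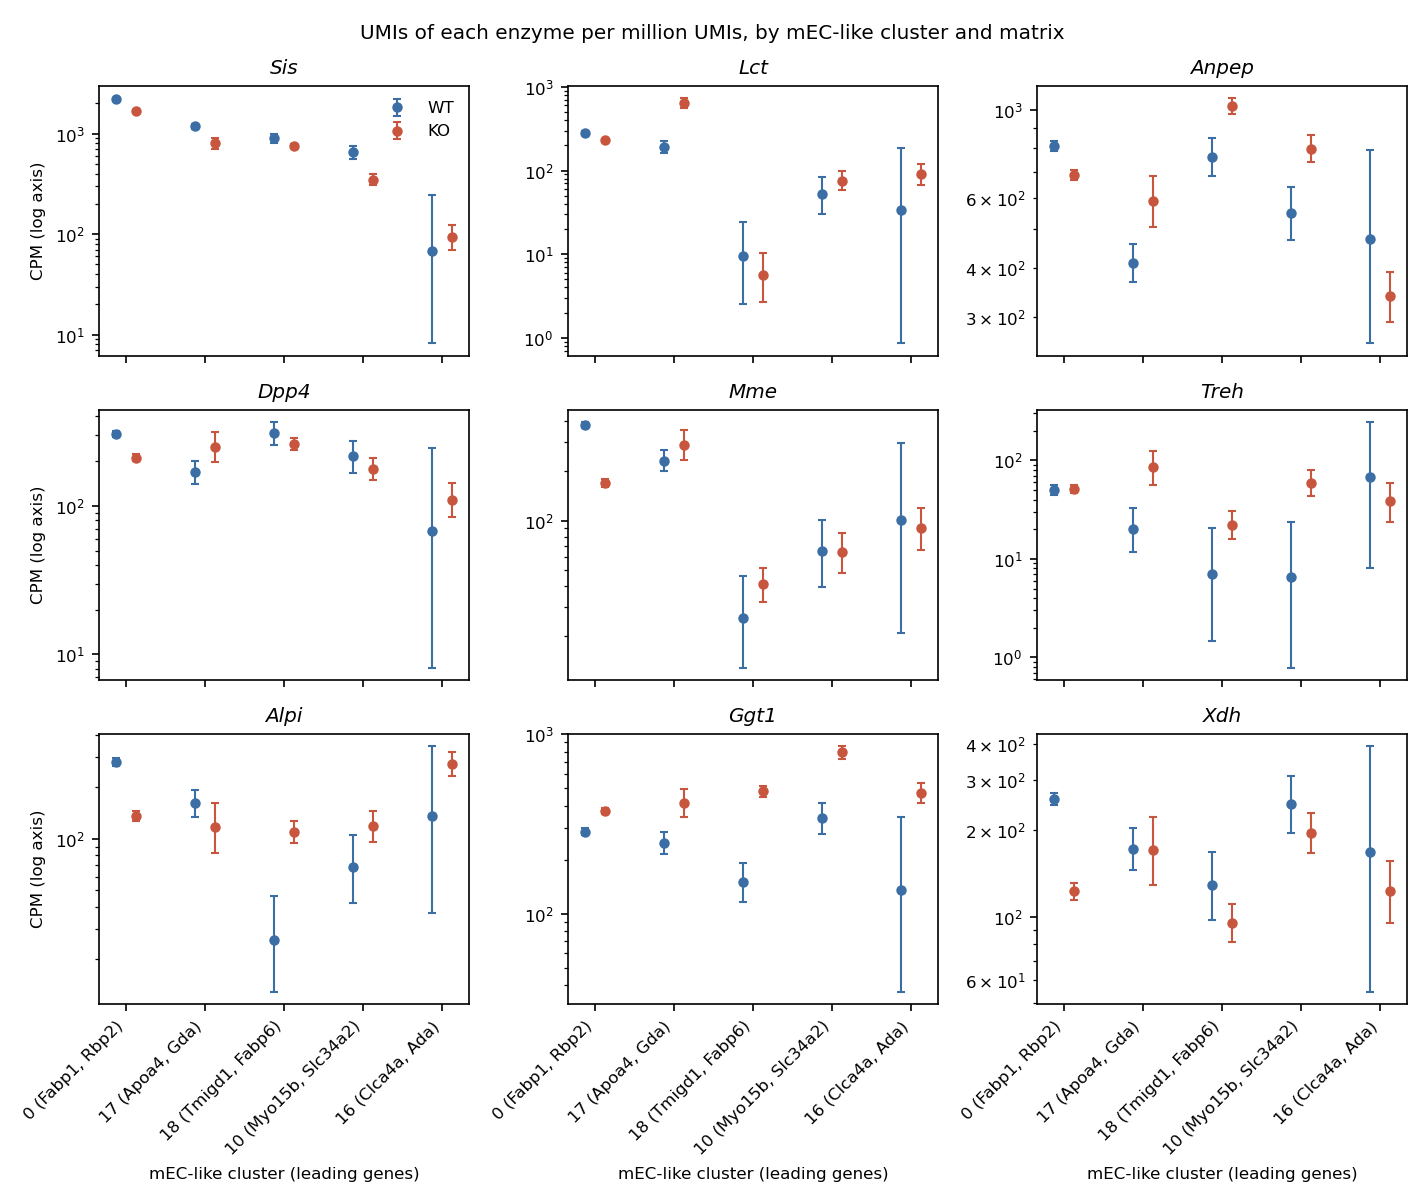
CPM of each enzyme (log axis) in the 5 mEC-like clusters of the WT matrix (blue) and the KO matrix (red), with exact Poisson 95% intervals. Lct is at 9.40 CPM in WT and 5.57 in KO in cluster 18, where Anpep is at 763 and 1023 CPM, and Sis is lowest in cluster 16.

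Cluster 18 held almost no lactase transcript. Its summed level of 11 fixed distal genes reached 62842 CPM in WT and 90981 CPM in KO, whereas cluster 0 had 2804 and 6903 CPM, and that of 14 proximal genes was 615 and 1832 CPM against 30468 and 33444. Lct was at 9.40 CPM there (4 UMIs in 73 cells) against 281 CPM in cluster 0 of WT (log2 ratio −4.90, −6.78 to −3.54), and at 5.57 CPM (10 UMIs in 214 cells) against 229 in KO (−5.36, −6.42 to −4.48). Mme was likewise lower in cluster 18, at 25.8 against 379 CPM in WT (−3.88, −4.88 to −3.03) and at 41.2 against 169 CPM in KO (−2.03, −2.39 to −1.69). Sis was lower in cluster 18 than in cluster 0 as well, at 900 against 2208 CPM in WT and 754 against 1674 in KO. Anpep and Dpp4 were not: Anpep was at 763 against 811 CPM in WT (−0.09, −0.25 to 0.07) and at 1023 against 686 CPM in KO (0.58, 0.50 to 0.65), and Dpp4 at 308 against 304 CPM in WT (0.02, −0.25 to 0.28) and at 262 against 212 CPM in KO. In WT 5 of 9 enzymes and in KO 4 of 9 were past 2-fold lower in cluster 18, beside 11.4% and 9.03% of all genes.

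Sis and Alpi parted in the KO cells of cluster 16. That cluster held the villus tip genes Ada, at 3292 CPM in KO against 9.45 in cluster 0, and Nt5e, at 211 CPM, and it was almost all KO cells. Sis was at 93.4 CPM in its KO cells against 1674 in cluster 0 (log2 ratio −4.16, −4.59 to −3.77), and against 349 CPM in cluster 10, which was as shallow (−1.90, −2.36 to −1.46). Alpi was higher in cluster 16 than in either, at 273 CPM against 136 and 119 CPM (1.01, 0.75 to 1.26 and 1.20, 0.82 to 1.59). It was the only member past 2-fold higher in cluster 16 than in cluster 10 of KO, beside 9.75% of genes. Against cluster 0 it was the 1 enzyme past 2-fold higher, beside 10.7% of genes, while 3 were past 2-fold lower (Sis, Lct and Anpep), beside 29.9%. Out of 9 enzymes, these counts lie near the shares of all genes. In WT, Alpi had 4 UMIs in cluster 16, and its log2 ratio was −1.05 (−2.93 to 0.31) against cluster 0 and 0.98 (−1.02 to 2.55) against cluster 10. Ggt1 was at 471 CPM and Xdh at 123 CPM in the KO cells of cluster 16. In cluster 10 Ggt1 was at its highest, 791 CPM in KO and 339 CPM in WT, and it was also among the leading genes of the unnamed cluster 5 (23 WT and 1441 KO cells, median 694 UMIs in KO), at 233 CPM in KO. The part of depth in these differences was not tested, beyond the comparison with cluster 10.

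Summed over all mEC-like cells, most of the enzymes were lower in KO than in WT, with Mme the furthest below and Ggt1 above. Among the mEC-like clusters the median enzyme ratio was below 0 in cluster 0 only, although Sis was lower in KO in clusters 10, 17 and 18 too. The median log2 ratio of the enzymes with at least 50 UMIs was −0.40 in cluster 0, 0.26 in cluster 10, 0.59 in cluster 16, 0.42 in cluster 17 and 0.42 in cluster 18. The median of all genes was −0.40, 0.09, 0.78, −0.12 and −0.24 in the same order. In cluster 16, which held 32 WT cells, the enzymes thus lay below all genes at their median. Over the whole class, the counting interval of the log2 ratio of KO to WT lay below 0 for 7 of 9 enzymes, above 0 for Ggt1, and across 0 for Treh. Mme was at 331 CPM in WT (318 to 344) and at 139 CPM in KO (132 to 147), which gave a log2 ratio of −1.25 (−1.34 to −1.15). Xdh was at 241 and 125 CPM (−0.95, −1.05 to −0.85) and Alpi at 245 and 137 CPM (−0.84, −0.94 to −0.74). Sis, the most abundant member by UMIs, was at 1961 and 1321 CPM (−0.57, −0.60 to −0.54), and weighting every cell equally took its ratio to −1.16.

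Smaller differences were seen for Dpp4 (286 and 214 CPM, −0.42, −0.50 to −0.34) and Lct (247 and 186 CPM, −0.41, −0.50 to −0.32). The gap was small for Anpep, at 756 and 730 CPM (−0.05, −0.10 to −0.00), whose sign changed with the processing, and for Treh, at 43.0 and 47.3 CPM (0.14, −0.06 to 0.34). Ggt1 was at 276 CPM in WT (265 to 288) and at 428 CPM in KO (415 to 440), which gave a log2 ratio of 0.63 (0.56 to 0.70).

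Read against all genes, the set as a whole did not stand apart in mEC-like cells. Mme was the 1 enzyme past 2-fold lower, where 18.2% of 9006 genes were past 2-fold lower in KO, and none of the 9 was past 2-fold higher, where 2.43% of genes were. The median log2 ratio of the 9 enzymes was −0.42 and that of all genes was −0.38. Ratios also moved with transcript length: with genes cut into 4 equal bins of length, the median was 0.10 in the bin of shortest genes and −0.88 in that of the longest. Mme, Xdh and Sis belong to the longest bin, Dpp4 and Lct to the next, whose median was −0.56, and Anpep and Ggt1 to the one with a median of −0.26. Alpi, at −0.84, and Treh belong to the shortest bin. The share of nuclear-retained and rRNA-derived transcripts (Malat1, Neat1, Gm42418 and AY036118) was 3.06% of mEC-like UMIs in WT and 1.11% in KO. The part of length and of this share in the ratios was not tested.

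**Figure D3:**
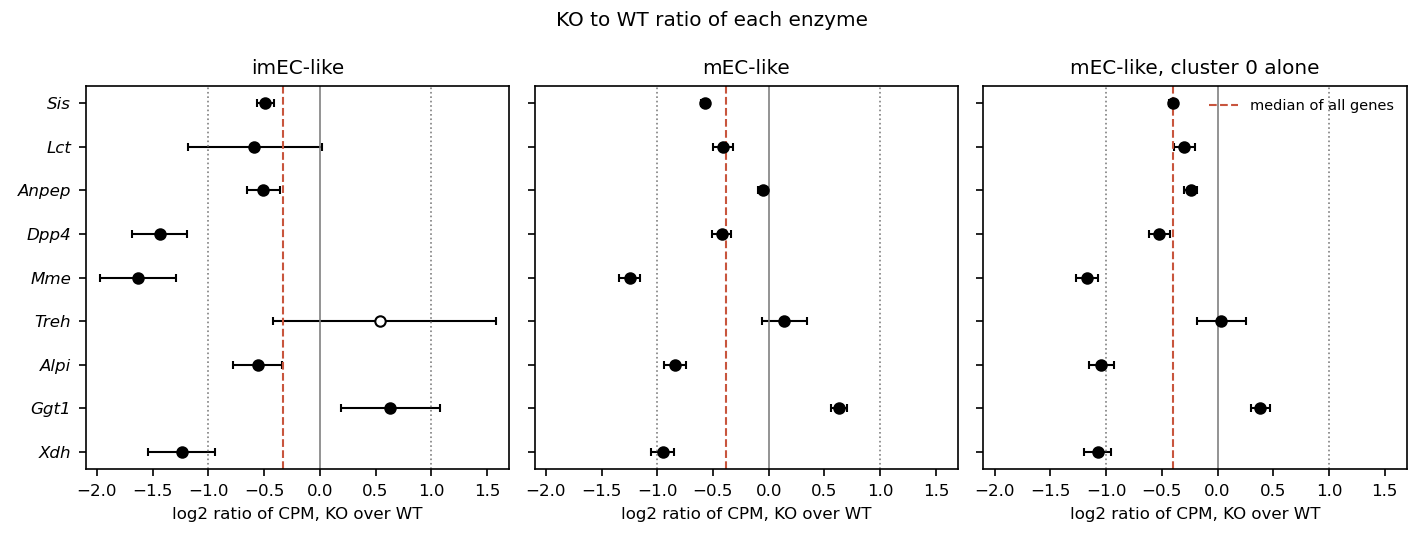
log2 ratio of CPM, KO over WT, for each enzyme in imEC-like cells, mEC-like cells and mEC-like cluster 0 alone, with exact 95% counting intervals. Dotted lines mark 2-fold, the dashed line the median of all genes of the panel, and the open circle a gene under 50 UMIs. Mme is past 2-fold lower in each panel and Ggt1 is above 0 in each.

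Because WT and KO cells filled the mEC-like clusters unequally, the ratios were also taken within clusters. In cluster 0 alone, 3 enzymes were past 2-fold lower in KO, beside 20.4% of genes: Mme (−1.17, −1.27 to −1.07), Xdh (−1.07, −1.19 to −0.96) and Alpi (−1.04, −1.16 to −0.93). Sis there stood at 2208 CPM in WT and 1674 in KO (−0.40), equal to the median of all genes in that cluster (−0.40). Elsewhere directions turned for several enzymes. Mme, the lowest over the class, was at 231 CPM in WT and 288 CPM in KO in cluster 17 (0.32, −0.06 to 0.69), at 25.8 and 41.2 CPM in cluster 18 (0.67, −0.25 to 1.74), and at 65.2 and 64.4 CPM in cluster 10 (−0.02, −0.79 to 0.81). Dpp4 was higher in KO in cluster 17, at 169 and 250 CPM (0.57, 0.15 to 0.98). Anpep was higher in KO in clusters 10, 17 and 18 (0.54, 0.52 and 0.42, each interval above 0), and Sis was lower in all 3 (−0.90, −0.55 and −0.26, each interval below 0). In cluster 18, Alpi (2.09, 1.21 to 3.11, from 11 and 197 UMIs) and Ggt1 (1.67, 1.31 to 2.06) were past 2-fold higher in KO, beside 5.74% of genes. In cluster 17, Lct was at 192 CPM in WT and 637 CPM in KO (1.73, 1.42 to 2.05), where 4.5% of genes were past 2-fold higher. KO cells of cluster 17 had a median of 21.6% mitochondrial UMIs and WT cells 10.3%, and the part of this difference was not tested. In cluster 10 Ggt1 was past 2-fold higher (1.22, 0.92 to 1.54), beside 11.9% of genes. Cluster 16 held only 32 WT cells, with 1 to 14 UMIs of each enzyme, so its ratios rest on few counts: 3 enzymes were past 2-fold higher in KO, beside 44.0% of genes.

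Per cell, the direction depended on depth. A WT mEC-like cell carried on average 8.42 UMIs of Sis and 1.42 of Mme, and a KO cell 6.32 and 0.667. Within cluster 0, where KO cells were deeper, the mean was 12.9 UMIs of Sis per WT cell and 17.01 per KO cell, whereas Mme was at 2.21 in WT and 1.71 in KO. Fewer transcripts per cell and a smaller share of the library were thus not the same statement for Sis, while Mme, Alpi (1.63 and 1.38 UMIs per cell in cluster 0) and Xdh (1.501 and 1.24) were lower in KO on both scales.

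The imEC-like class, a single cluster of similar size in both matrices, showed gaps past 2-fold for 3 enzymes. Mme stood at 48.8 CPM in WT and 15.8 in KO (log2 ratio −1.63, −1.98 to −1.29), Dpp4 at 88.1 and 32.5 CPM (−1.44, −1.68 to −1.19) and Xdh at 55.1 and 23.3 CPM (−1.24, −1.54 to −0.94). These 3 of the 8 enzymes with at least 50 UMIs were past 2-fold lower, beside 17.2% of genes, and none was past 2-fold higher, beside 0.872% of genes. Sis, Anpep and Alpi were at ratios of −0.49, −0.51 and −0.56. Ggt1 was above 0 here too, at 15.1 CPM in WT and 23.3 in KO (0.63, 0.19 to 1.08). The median of the 8 enzymes was −0.57 and that of all genes −0.33. In this class the median ratio was −0.89 in the bin of longest genes and −0.54 in the next. Median depth was 7915 UMIs per cell in WT and 15194 in KO. The part of length and of depth in these gaps was not tested.

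Summed by class, Ggt1, Dpp4, Mme and Xdh had ratios of 1 sign in all 8 classes, although Mme and Dpp4 turned within single mEC-like clusters. The ratio of Ggt1 was above 0 in 8 of 8 classes, of which 7 had at least 50 UMIs of it. The interval of Ggt1 was above 0 in 7 classes, the exception being EEC-like cells (0.08, −0.74 to 0.92). It was past 2-fold higher in GC-like cells (1.07, 0.81 to 1.33), beside 3.21% of genes, and at 0.89 in PC-like cells. In all kept cells together Ggt1 stood at 25.9 CPM in WT and 57.5 in KO (1.15, 1.09 to 1.21), the 1 enzyme past 2-fold higher there, beside 3.94% of genes. The mEC-like class, where Ggt1 was highest, made up 13.7% of kept cells in WT and 26.2% in KO. The part of this difference in the ratio over all kept cells was not tested. In GC-like and PC-like cells Ggt1 was far under its mEC-like level and near the level in tuft cells. The tuft level was itself 8.31 CPM in WT and 20.3 CPM in KO, so that free RNA and expression cannot be told apart there. The ratios of Dpp4, Mme and Xdh were below 0 in 8 of 8 classes, with the interval below 0 in 6, 6 and 7 of them. Dpp4 had at least 50 UMIs in 8 classes, but Mme and Xdh in 6 each, so their other ratios rest on few counts. The median of all genes ran from −0.38 in mEC-like to 0.09 in TC-like cells. Dpp4 was past 2-fold lower in CBC-like (−1.14, −1.36 to −0.92) and TAC-like cells (−1.12, −1.28 to −0.96), where 15.1% and 17.4% of genes were past 2-fold lower, and so was Xdh (−1.32, −1.71 to −0.95 and −1.26, −1.51 to −1.01). Dpp4 was also past 2-fold lower in EEC-like cells (−1.10, −1.52 to −0.70), beside 9.98% of genes, and Xdh in GC-like cells (−1.10, −1.33 to −0.86), beside 11.6%. In CBC-like, TAC-like and GC-like cells Xdh was within counting error of tuft cells in both matrices. The tuft level was itself 24.9 CPM in WT and 6.47 CPM in KO, from 24 and 7 UMIs. Free RNA and expression thus cannot be told apart for Xdh in those classes either. The median ratio of the longest genes was −0.83 in CBC-like, −0.88 in TAC-like and −0.66 in GC-like cells, and the part of length was not tested.

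The share of cells with at least 1 UMI differed in the same directions for the enzymes below, once all cells had been thinned to 1000 UMIs, which left out 230 WT and 886 KO mEC-like cells that were shallower. Sis was found in 73.3% of WT cells (71.0% to 75.5%, n = 1570 cells) and in 53.8% of KO cells (51.1% to 56.4%, n = 1383 cells). Ggt1 was found in 23.4% and 35.8%, Mme in 25.5% and 11.5%, Xdh in 20.6% and 12.3%, and Anpep in 50.2% and 48.7%. Anpep alone of these was within counting error. In tuft cells, with median depths of 3969 UMIs in WT and 10944 in KO before thinning, against 4591 and 1772 for mEC-like cells, Sis was found in 5.4% and 3.8%, and Ggt1 in 2.0% and 5.1%. Without thinning, Sis was found in 84.0% of WT and 53.1% of KO mEC-like cells, and Ggt1 in 53.2% and 62.9%.

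**Figure D4:**
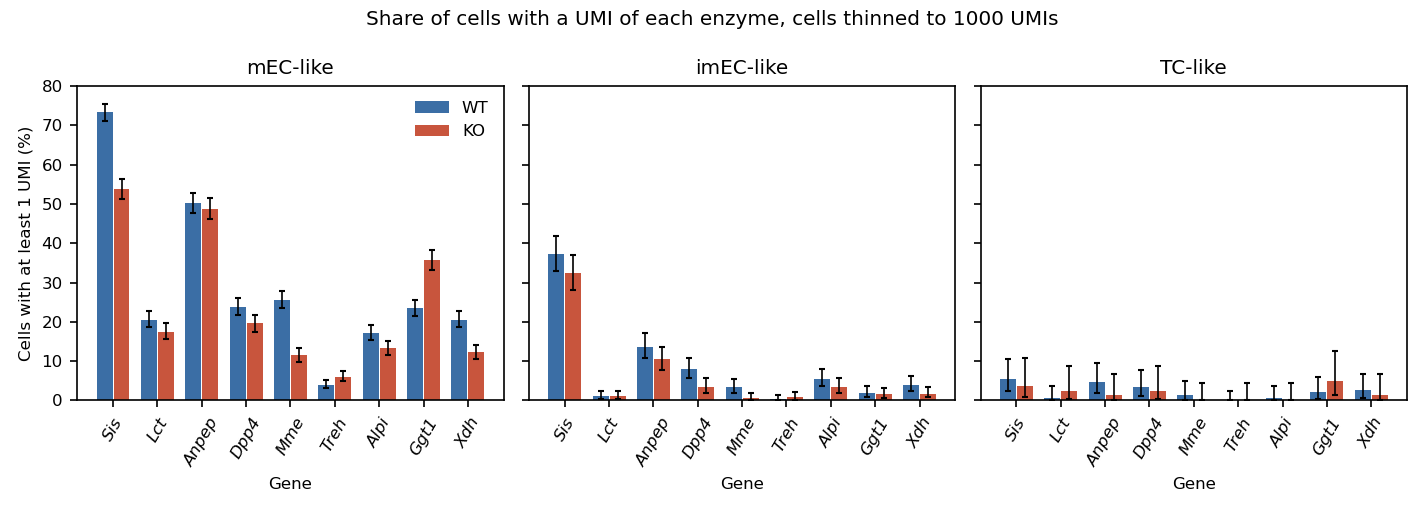
Share of cells with at least 1 UMI of each enzyme after thinning to 1000 UMIs, in mEC-like, imEC-like and TC-like cells of the WT matrix (blue bars) and the KO matrix (red bars), with exact Clopper-Pearson 95% intervals. Sis was in 73.3% of WT and 53.8% of KO mEC-like cells, and all shares in tuft cells were at or under 5.4%.

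Enzymes were seen together in the same cells. At 1000 UMIs per cell, 47.6% of WT and 38.5% of KO mEC-like cells held UMIs of 3 or more of the 9 enzymes, 2.95% of WT and 1.31% of KO imEC-like cells did, and 1 of 147 WT and 1 of 79 KO tuft cells did. In cluster 0 alone the shares were 57.3% in WT and 44.0% in KO, whereas in cluster 17 they were 29.9% (24.9% to 35.2%) and 48.0% (37.8% to 58.3%), in cluster 10 17.9% (11.2% to 26.6%) and 31.9% (25.5% to 38.7%), and in cluster 18 32.9% and 33.6%. Of these 4 clusters, cluster 0 had a lower share in KO. Among 850 WT and 737 KO CBC-like cells there were 0, which allows a share of up to 0.433% and 0.499% by the exact interval.

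Other hydrolases of the brush border were higher in KO than in WT mEC-like cells at their median. Of 20 on a fixed list, 18 had at least 50 UMIs in mEC-like cells, with a median log2 ratio of 0.68, and 5 were past 2-fold higher in KO and 1 lower, beside 2.43% and 18.2% of all genes. In cluster 0 alone 17 were measured, with a median of 0.38 beside −0.40 for all genes, 3 higher and 1 lower. There 20.4% of all genes were past 2-fold lower, and the share past 2-fold higher is not given here. The higher ones over the class were Nt5e (6.48, 3.97 to 11.79, from 1 UMI in WT and 125 in KO), Enpp3 (3.03, 2.27 to 3.90), Plb1, a phospholipase (2.08, 1.83 to 2.34), Xpnpep2, an aminopeptidase (1.08, 0.89 to 1.28) and, named after its value was seen, the dipeptidase Dpep1 (1.02, 0.94 to 1.11). In cluster 0, Plb1, Enpp3 and Xpnpep2 were past 2-fold higher as well (2.16, 1.93 and 1.07), Dpep1 was at 0.70, and Nt5e had 0 UMIs in WT and 5 in KO. The 1 hydrolase past 2-fold lower was Akp3, the paralog of Alpi, at 114 UMIs in WT and 6 in KO (−4.74, −6.21 to −3.57), 106 and 6 of them in cluster 0. In imEC-like cells 13 were measured and 2 were past 2-fold lower, Asah2 (−1.41, −2.03 to −0.81) and Enpep (−1.04, −1.20 to −0.87), with a median of −0.38, and this count lies near the 17.2% of all genes that were past 2-fold lower in that class.

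Genes of the microvillus scaffold went both ways in mEC-like cells without passing 2-fold. Of 12 genes of the actin core and its links, 0 were past 2-fold in either direction, beside 2.43% of all genes higher and 18.2% lower. Their median was −0.19. The ratios ran from −0.71 for Anks4b (−0.84 to −0.58) to 0.97 for Espn (0.88 to 1.05), both named after their values were seen. In imEC-like cells 2 were past 2-fold lower, Myo7b (−1.08) and Pls1 (−1.02), a count near the 17.2% of all genes in that class. Regulators of enterocyte genes past 2-fold lower in mEC-like cells, as 18.2% of all genes were, included Hnf4g (−1.64, −1.75 to −1.52) and Gata4 (−1.17, −1.43 to −0.91). Prdm1, a repressor known from the suckling intestine, had 21 UMIs in WT and 67 in KO over the class (1.18, 0.46 to 1.97), but 15 and 11 in cluster 0 (−0.71, −1.98 to 0.51), so that its higher level came from the other mEC-like clusters. The median of the 13 regulators measured was −0.64. In imEC-like cells Hnf4g alone was past 2-fold lower (−1.32, −1.49 to −1.16).

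Genes of gut region and villus height also differed between the matrices. In mEC-like cells the 14 proximal genes summed to 26185 CPM in WT and 24680 in KO, and the 11 distal genes to 6812 and 22214 CPM. Of the distal genes tested, 5 of 10 were past 2-fold higher in KO and 0 lower, beside 2.43% and 18.2% of all genes, led by Slc10a2 (2.55), Fabp6 (1.93), Slc51b (1.69) and Amn (1.32). Of the 14 proximal genes, against the same shares, 1 was higher, Dnase1 (1.32), and 1 lower, Gata4. The 6 villus tip genes summed to 1838 and 2591 CPM, with Nt5e, Ada (4.99) and Slc28a2 (4.10) past 2-fold higher, and the 4 genes of the villus bottom to 17549 and 53239 CPM, with Reg3b (1.89) and Reg3g (1.82) higher and Nlrp6 (−1.53) lower. Within cluster 0 the distal sum was 2804 CPM in WT and 6903 in KO and the proximal sum 30468 and 33444. The part of region and villus height in the enzyme ratios was not tested, and a change in the cells sampled and a change in transcripts per cell cannot be told apart here.

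Across 46 points (each cluster with at least 20 cells in a matrix), the enzymes were compared with 4432 genes by Pearson's r of log2(CPM + 10), given as a description because the points share libraries and depth. Anpep was followed most closely by Mep1b (r = 0.96), a meprin protease, and by Gda (0.96). Ggt1 was followed by Apoa1 (0.95), Soat2 (0.93) and Gsdmd (0.92), Xdh by Igsf9 (0.95), Gda and Pls1 (both 0.94), and Lct by Leap2 (0.94), Dnase1 (0.91) and Cyp3a11 (0.88). Dpp4 was followed by the glucose transporter gene Slc5a1 (0.94), Anks4b (0.91) and the glucosidase gene Mgam (0.90). Sis was followed by Cox7a1 (0.91), Apol10a and Mttp (both 0.90), Mme by Gpt, Adh6a and Gda (0.91, 0.90 and 0.90), Treh by Cyp3a11 and Slc15a1 (both 0.91) and Slc27a4 (0.89), and Alpi by 2010003K11Rik and Erich4 (both 0.92) and 2010106E10Rik (0.91). Among the 9 themselves, r was highest between Mme and Alpi (0.93) and lowest between Sis and Treh (0.57).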

How the data were processed

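Single-cell RNA was measured in 2 pooled matrices, 1 for WT and 1 for KO. The deposited values are raw UMI counts per gene and barcode, made by the authors with Cell Ranger and not normalized. The file headers name version 4.0.0 and the submitters' processing notes version 2.1.1 and build mm10, a disagreement that could not be settled here. No unused per-sample column was found.

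Barcodes with at least 200 genes and at most 30% mitochondrial UMIs were kept, following the study's methods. Scrublet (scanpy 1.11.5) called 1 WT and 0 KO barcodes and so did not work, and doublets stayed in the main values. Integration of both matrices used the canonical correlation method of Seurat 5.3.0 under R 4.3.3, with 2000 variable genes and 30 dimensions, and left out the 9 enzymes, the other hydrolases, scaffold and mitochondrial genes. Clusters came from leidenalg 0.10.2 at resolution 1 on 15 neighbours, and each was named for the class that had most of its fixed markers, at least 3, among the 50 leading genes. These names are not the authors' own and may not match theirs.

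Levels are summed UMIs as CPM with exact Poisson intervals, ratios have exact conditional binomial intervals, and genes past 2-fold were counted among those with at least 50 UMIs over both matrices. The ratio script was tested on simulated counts. Alternatives changed the mitochondrial and gene limits, doublets, the denominator, the averaging, the clustering and the thinning. The text names the 9 enzymes, of each list at most 4 genes past 2-fold per direction, and the 3 genes most correlated with each enzyme. Some items that these rules name are not reported here. The 9 genes and the lists were chosen with earlier results of these data known. Promoters came from RefSeq (GRCm38.p6) and positions from GENCODE M21, in which 27645 of 27998 gene identifiers were found.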

Additional observations from a re-analysis of the deposited data

Results flagged for a closer look

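Enzyme transcripts were also present in barcodes that the mitochondrial limit had removed. Ggt1 stood at 260 CPM (248 to 273) in the 4084 removed KO barcodes and at 221 CPM (204 to 240) in the 1898 removed WT barcodes, which was above the level over all kept cells in both matrices. It was below the mEC-like level of 428 CPM in KO and 276 CPM in WT, although mitochondrial UMIs count in each CPM. Per UMI of non-mitochondrial genes, Ggt1 was higher in removed than in kept barcodes by a log2 ratio of 3.08 in KO and 3.84 in WT. The other 8 enzymes were higher there too, from 1.05 (Sis in KO) to 3.77 (Treh in WT). The kept barcodes were of all classes, whereas the removed ones were not assigned to classes, so the part of class make-up was not tested. The removed barcodes were 32.1% of the KO barcodes with at least 200 genes and 12.7% of those in WT, and their part in the ratios between the matrices was not tested.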

How the results depend on the processing

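The median log2 ratio of the 9 enzymes in mEC-like cells, −0.42, stayed below 0 under every alternative run and ranged from −0.59 to −0.33. It was −0.54 at a mitochondrial limit of 15%, −0.59 with every cell weighted equally, −0.33 with each matrix clustered by itself, and −0.51 without the shallow clusters 10, 16 and 17. The count of enzymes past 2-fold lower, 1 in the main analysis, became 2 at the 15% limit, with at least 500 genes per cell and with cells weighted equally, and 3 without the shallow clusters or in cluster 0 alone. Leaving out shallow clusters, using cluster 0 alone and thinning to 500 UMIs were chosen after seeing the data. Anpep turned to 0.032 with genes above 1% of UMIs out of the denominator and to 0.13 with each matrix clustered by itself, so it has no settled direction. Treh ranged from −0.05 to 0.51 and Sis from −1.16 to −0.40, the lowest with cells weighted equally. Mme stayed between −1.41 and −1.16, and Ggt1 between 0.38 and 0.91. In imEC-like cells the median ranged from −0.61 to −0.55. That class was not named at resolution 2, nor in WT clustered by itself, so these alternatives gave no value for it. No paired analysis was possible because the matrices do not name the samples, and for the same reason no sample could be left out. Tuft cells were few (154 in WT and 80 in KO), so comparisons with their levels are wide.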
